A study of Mus musculus with 6 samples.

Results

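The embryonic and adult globins, the oxygen-binding chains of hemoglobin, were followed in mouse fibroblasts reprogrammed toward blood. The 5 genes Hbb-y, Hbb-bh1, Hba-x, Hba-a1 and Hba-a2 were looked up by gene symbol in a table of 26323 genes read on the Mouse Exon 1.0 ST platform, an array whose probe sets each read an exon or part of one. Of these 5 genes, 3 had a row of their own (Hbb-y, Hbb-bh1 and Hba-x, 1 row each). The adult alpha-globin genes Hba-a1 and Hba-a2 had none and were read from 10 probe sets that list both of them. Hbb-y, Hbb-bh1 and Hba-x were below background in untreated cells and rose in both sorted populations, and the 10 adult alpha-globin probe sets rose as well. Hbb-bh1 was the weakest of them, with 1 of its 2 CDH5+ arrays still below background.

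Each of 3 groups was measured on 2 arrays, 6 arrays in all, and the study calls them biological replicates. Untreated cells were mouse embryonic fibroblasts (MEFs), taken here as wild-type, that had not been transduced. The study's account of the arrays names no mutant genotype. Before infection the study depleted its MEFs of cells with blood or endothelial surface markers. CDH5+ cells were MEFs, again taken as wild-type, transduced with the 5 factors ERG, GATA2, LMO2, RUNX1c and SCL. They were sorted at day 8 for CDH5, the VE-cadherin of endothelial junctions. c-KIT+ cells came from MEFs transduced in the same way and were sorted at day 12 for c-KIT, the receptor for stem cell factor. The factors were carried by lentiviral vectors and the transduced cultures were kept in medium with erythropoietin, the hormone that supports red cell formation. The strain of the MEFs and the medium of the untreated cells were not given in the sources used here, and time after transduction and the sorted marker changed together, so their parts cannot be told apart. A mean over sorted cells does not separate fewer expressing cells from less RNA per cell.

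Hemoglobin is a tetramer of a pair of alpha-like chains and a pair of beta-like chains, encoded in separate gene clusters. In the mouse the first red cells are made in the yolk sac. Their beta-like chains are epsilon-y of Hbb-y and beta-h1 of Hbb-bh1, and their alpha-like chains are zeta of Hba-x and also alpha. Later red cells use the alpha chains of Hba-a1 and Hba-a2 with adult beta chains. A distant enhancer region in each cluster, the locus control region of the beta cluster and the upstream elements of the alpha cluster, raises transcription of the genes in red cell precursors.

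The promoters of the genes that moved together are shown because several erythroid factors act through short motifs close to the start of transcription. RefSeq sequence of build GRCm38.p6 was available for 4 of the 5 genes, and the 150 bases before the annotated start are printed for 3 of them and for the adult gene Hbb-bs. Capitals mark CACCC (the box read by KLF1), the CCAAT box, a TATA box (spelled TATAA, or CATAAA in its variant form), and a GATA motif, which is GATA between an A or T before it and an A or G after it, each searched on both strands, and no motif marked here shares a base with another.
Hbb-y (chr7:103853208-103853357, minus strand): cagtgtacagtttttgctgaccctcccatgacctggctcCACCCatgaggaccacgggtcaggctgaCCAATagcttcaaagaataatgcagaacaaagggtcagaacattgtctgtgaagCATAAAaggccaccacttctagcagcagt
Hba-x (chr11:32276450-32276599, plus strand): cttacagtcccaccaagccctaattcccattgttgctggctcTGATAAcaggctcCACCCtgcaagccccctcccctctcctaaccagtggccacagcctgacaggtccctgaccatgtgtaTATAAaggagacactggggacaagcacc
Hba-a1 (chr11:32283522-32283671, plus strand): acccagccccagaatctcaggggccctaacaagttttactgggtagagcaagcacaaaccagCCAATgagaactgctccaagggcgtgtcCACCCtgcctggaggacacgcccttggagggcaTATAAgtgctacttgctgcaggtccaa
Hbb-bs (chr7:103827929-103828078, minus strand): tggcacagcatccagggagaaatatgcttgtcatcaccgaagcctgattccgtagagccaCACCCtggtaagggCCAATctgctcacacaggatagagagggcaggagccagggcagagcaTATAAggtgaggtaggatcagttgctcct

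All 4 windows held a CACCC motif and a TATA box. The CACCC motif lay 111 bases before the start of Hbb-y, 95 before that of Hba-x, 60 before that of Hba-a1 and 90 before that of Hbb-bs. CCAAT was found in Hbb-y, Hba-a1 and Hbb-bs and not in Hba-x, and Hba-x was the only one of the 4 with a GATA motif, at 108 bases before its start. Over windows of the same length in front of 32851 annotated promoters, CACCC was present in 37.4%, CCAAT in 24.5%, the TATA box in 18.9% and a GATA motif in 16.0%. The 2 adult alpha genes could not be told apart by this sequence, since 247 of 247 bases compared before their starts were identical when shifted by 3 bases. The promoter of Hbb-bh1 is not shown. A match is a run of letters and not a measured binding site.

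Values are log2 expression as the authors deposited them. The background of each array was set at the 95th percentile of 884 olfactory receptor genes, which fibroblasts and blood cells hardly use, and it lay between 5.90 and 6.04. Groups were compared with limma, a linear model fitted to each gene over all 6 arrays, and a gene was called at a Benjamini-Hochberg adjusted p under 0.05 over all 26323 rows. All 3 globin genes with a row were called higher in CDH5+ cells than in untreated cells and again in c-KIT+ cells, where 0.965% and 3.24% of all genes were called higher and 0.213% and 2.72% lower. All 3 also passed limma's F-test over the groups, which called 3.30% of all genes. In each of the 3, both arrays of a sorted population lay above both untreated arrays, as was so for 18.1% of all genes in CDH5+ and 28.6% in c-KIT+ cells. These comparisons share the untreated arrays. None of the 3 was called between c-KIT+ and CDH5+ cells, a comparison in which limma called 0% of all genes, and 1 of the 3 passed an unadjusted p under 0.05 there.

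Hbb-y, the epsilon-y chain of the yolk sac hemoglobins, showed the largest difference of the 3. It measured 3.82 and 3.95 in untreated cells, 11.09 and 11.66 in CDH5+ cells, and 11.70 and 11.70 in c-KIT+ cells. Both untreated arrays lay below background and the other 4 far above it, with no overlap. The mean and SD of the 2 arrays were 3.88 ± 0.09 for untreated, 11.38 ± 0.40 for CDH5+ and 11.70 ± 0.0012 for c-KIT+ cells. Hbb-y was higher by a log2 difference of 7.49 in CDH5+ cells (limma, SE 0.25, adjusted p = 0.000868) and by 7.82 in c-KIT+ cells (limma adjusted p = 0.00043). Because the untreated signal was not above background, the rise is given as at least 44.2-fold and at least 55.3-fold against the background level. From CDH5+ to c-KIT+ cells the log2 difference was 0.32 (95% interval -0.29 to 0.94, limma adjusted p = 0.569), which does not exceed the spread between arrays. It was 0.042 without the first CDH5+ array, 0.60 without the second and 0.11 after quantile normalization.

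Hbb-bh1 encodes beta-h1, the other embryonic beta-like chain, and was the only member whose CDH5+ and c-KIT+ values stood apart by more than the replicate spread before adjustment. It measured 3.08 and 3.54 in untreated cells, 5.96 and 6.29 in CDH5+ cells, and 7.09 and 7.15 in c-KIT+ cells. The arrays of the 3 groups did not overlap, but of the 2 CDH5+ arrays the lower, at 5.96, was under its own background of 6.02. Hbb-bh1 was higher by a log2 difference of 2.81 in CDH5+ cells (limma, SE 0.25, adjusted p = 0.00899) and by 3.81 in c-KIT+ cells (limma adjusted p = 0.00183). Against the background level these rises are at least 1.16-fold and at least 2.31-fold. From CDH5+ to c-KIT+ cells its log2 difference was 1.00 (95% interval 0.39 to 1.60), with a limma p of 0.00735 that became 0.214 after adjustment. In that comparison 11.2% of all genes had an unadjusted p under 0.05 and were higher, and in 36.6% of all genes both c-KIT+ arrays lay above both CDH5+ arrays.

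Hba-x, the embryonic alpha-like zeta chain, rose in both sorted populations. It measured 5.37 and 5.66 in untreated cells, 8.48 and 9.08 in CDH5+ cells, and 8.95 and 9.13 in c-KIT+ cells. The untreated arrays lay below background and the 4 others above it, and the ranges of CDH5+ and c-KIT+ cells overlapped. The log2 difference from untreated cells was 3.27 in CDH5+ cells (limma, SE 0.27, adjusted p = 0.00747) and 3.53 in c-KIT+ cells (limma adjusted p = 0.00309). These rises are at least 7.33-fold and at least 8.77-fold against background. Between c-KIT+ and CDH5+ cells the log2 difference was 0.26 (95% interval -0.41 to 0.93, limma adjusted p = 0.687), and its sign turned under some of the settings given in the closing section. The calls of Hba-x and Hbb-bh1 in CDH5+ cells rested on the second CDH5+ array. Without it the log2 differences were 2.97 (limma adjusted p = 0.0582) and 2.65 (limma adjusted p = 0.0898), while Hbb-y remained called in CDH5+ cells whichever array was left out. Calls over all genes fell from 310 to 67 in that fit.

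Hba-a1 and Hba-a2 encode nearly identical adult alpha chains, and each of the 10 probe sets listing them may read either gene. The mean of the 10 probe sets was 5.83 and 6.22 in untreated cells, 11.55 and 12.35 in CDH5+ cells, and 11.86 and 11.88 in c-KIT+ cells. Single probe sets measured between 4.11 and 7.82 in untreated cells. The untreated means stood far below the other 4, though 1 of them was above its background, and both c-KIT+ arrays lay within the range of the CDH5+ arrays. Added to the gene table as 1 row, this mean was higher by a log2 difference of 5.92 in CDH5+ cells (limma, SE 0.32, adjusted p = 0.00209) and by 5.85 in c-KIT+ cells (limma adjusted p = 0.00128). Against the background level the rises were at least 58.8-fold and at least 55.8-fold. The log2 difference between c-KIT+ and CDH5+ cells was -0.08 (limma adjusted p = 0.936).

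**Figure D1:**
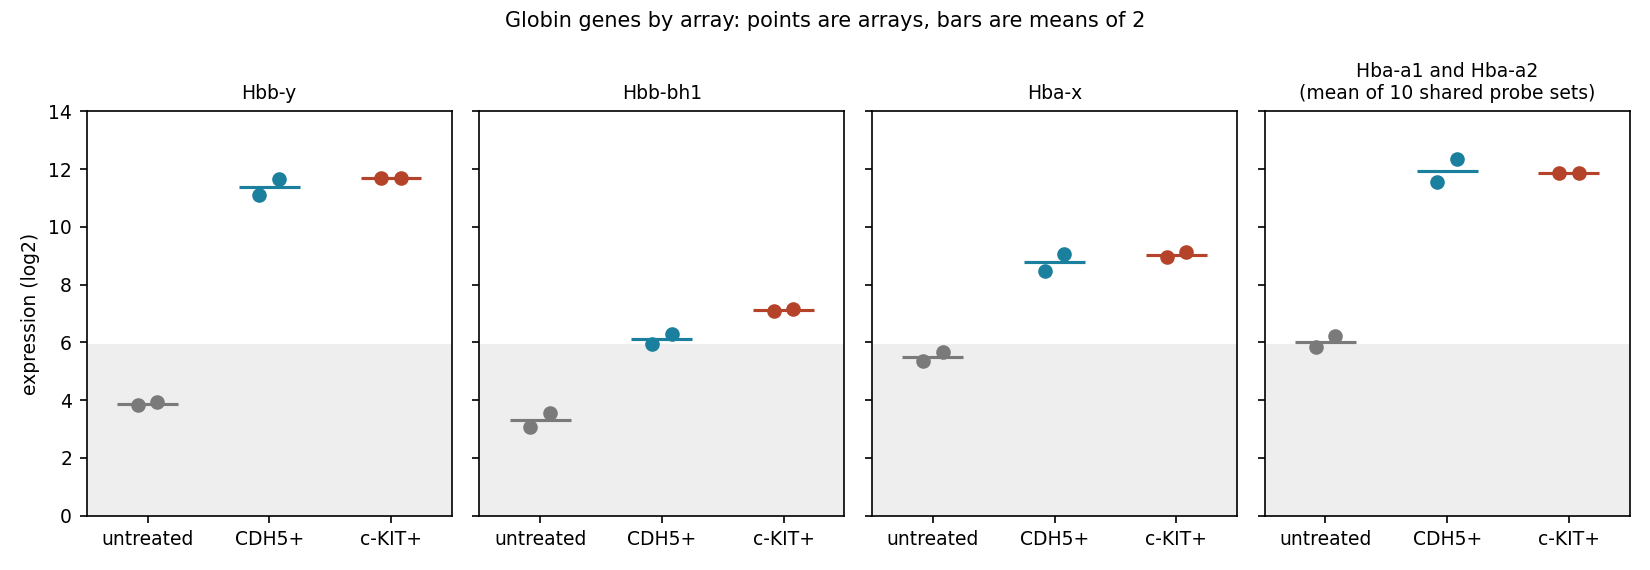
Expression (log2) of Hbb-y, Hbb-bh1 and Hba-x from the gene table and the mean of the 10 probe sets shared by Hba-a1 and Hba-a2, with a point for each array, a bar for the mean of the 2 arrays and grey shading up to the lowest background level of any array. The untreated points lie in or just above the shaded range, and Hbb-bh1 is the panel with the widest gap between the CDH5+ and c-KIT+ points. The lower CDH5+ point of Hbb-bh1 lies above the shading but below the background of its own array.

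The 2 CDH5+ arrays were not equally high. The second exceeded the first by 0.56 for Hbb-y, 0.33 for Hbb-bh1, 0.60 for Hba-x and 0.80 for the adult alpha probe sets on the log2 scale, where the median over all genes was -0.08. The rows of the adult beta genes had -0.24 for Hbb-bs and -0.14 for Hbb-bt, but each averages a dim probe set with no gene symbol. The mean of the 7 probe sets listing both Hbb-b1 and Hbb-b2 was higher on the second array, at 12.78 against 12.52. The mean of 6 fibroblast markers (Col1a1, Col1a2, Thy1, Pdgfra, Postn and Dcn) was 9.77 on the first CDH5+ array and 7.80 on the second. It also differed between the untreated arrays, at 11.04 on the first and 9.52 on the second. The marker mean alone therefore does not tell how many fibroblasts each array held. The part of the marker difference between the CDH5+ arrays in the globin values was not tested.

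A fit over all 1236087 probe sets showed how evenly the exons of each gene moved. There 0.136% of all probe sets were called higher in CDH5+ and 0.417% in c-KIT+ cells at a limma adjusted p under 0.05. All 10 adult alpha probe sets were called higher in both populations, with log2 differences from 4.94 to 7.54 in CDH5+ cells and from 4.39 to 7.71 in c-KIT+ cells. All 4 probe sets of Hbb-y were called in both, with log2 differences from 6.36 to 9.30 and from 7.09 to 9.36. Hbb-bh1 was less even, since 1 of its 7 probe sets was called in CDH5+ cells and 5 of 7 in c-KIT+ cells. The remaining probe sets of Hbb-bh1 in c-KIT+ cells included 1 with a log2 difference of 0.59, which had an adjusted p of 0.756 in limma. Of 5 Hba-x probe sets, 3 were called in CDH5+ and 4 in c-KIT+ cells, and the probe set that was called in neither already measured 8.06 and 7.42 in untreated cells. No globin probe set was called between c-KIT+ and CDH5+ cells, where limma called 0% of all probe sets, and 3 of the 7 Hbb-bh1 probe sets, 1 of the 5 Hba-x probe sets and 0 of the 10 adult alpha probe sets were higher at an unadjusted p under 0.05 (4.03% of all probe sets were).

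The probe sets also showed what a gene value is an average of. The deposited value of each of these genes equalled the mean of a set of log2 probe set values to within 3.3e-10. For Hbb-y these were its 4 probe sets, and for Hbb-bh1 they were 6 of the 7 listed. For Hba-x they were the 5 listed probe sets and 1 with no gene symbol, whose mean was 4.68 in untreated, 5.77 in CDH5+ and 5.03 in c-KIT+ cells. The median log2 difference of the 5 listed Hba-x probe sets was 4.32 in CDH5+ and 4.19 in c-KIT+ cells, and their mean, without the one that has no symbol, was 3.71 and 4.17.

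**Figure D2:**
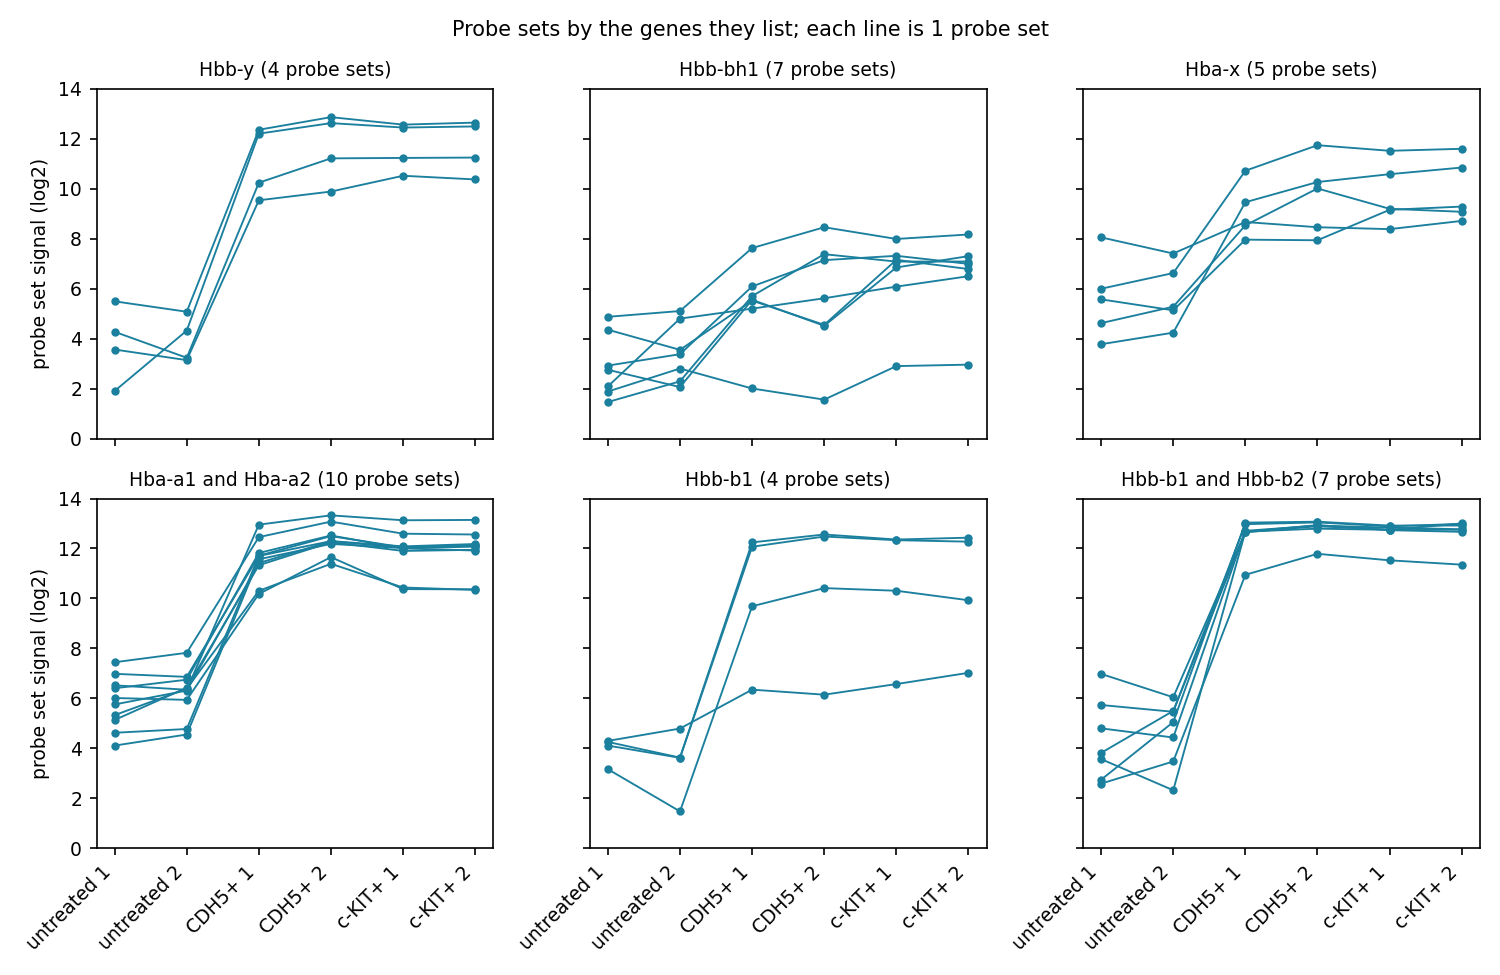
Signal (log2) of single probe sets on the 6 arrays, grouped by the genes they list, with 1 line for each probe set joining its values. The 10 lines of Hba-a1 and Hba-a2 and the 4 of Hbb-y rise together, while 1 of 7 lines of Hbb-bh1, 1 of 5 of Hba-x and 1 of 4 of Hbb-b1 stay apart from the rest.

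Adult beta-globin, the partner of the adult alpha chains, was measured next to the 5 genes. The gene table names its genes Hbb-bs and Hbb-bt, as in strains with the single beta-globin haplotype, and the probe sets use the names Hbb-b1 and Hbb-b2. Hbb-bs measured 4.03 and 3.55 in untreated cells, 7.02 and 6.78 in CDH5+ cells, and 7.18 and 7.25 in c-KIT+ cells. Hbb-bt measured 2.44 and 2.95 in untreated cells, 7.58 and 7.44 in CDH5+ cells, and 7.99 and 7.95 in c-KIT+ cells. Both genes were below background in untreated cells and above it on the 4 other arrays. Hbb-bs had log2 differences of 3.10 in CDH5+ (limma adjusted p = 0.00630) and 3.43 in c-KIT+ cells (limma adjusted p = 0.00233), or at least 1.98-fold and at least 2.48-fold against background. Hbb-bt had log2 differences of 4.82 (limma adjusted p = 0.00165) and 5.28 (limma adjusted p = 0.000864), or at least 3.04-fold and at least 4.17-fold.

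The rows of Hbb-bs and Hbb-bt averaged few probe sets. That of Hbb-bs was the mean of 2 probe sets listing Hbb-b1 and 1 with no symbol. That of Hbb-bt was the mean of 1 probe set listing Hbb-b1 and Hbb-b2 and 1 with no symbol. The latter stayed at 4.55 or less on every array. The former may read either adult beta gene, so the row of Hbb-bt does not tell the 2 genes apart. Among the probe sets listing both Hbb-b1 and Hbb-b2, 7 of 7 were called higher in CDH5+ cells, with log2 differences from 6.29 to 9.79, and 7 of 7 in c-KIT+ cells, with log2 differences from 6.19 to 9.93. Of those listing Hbb-b1 alone, 3 of 4 were called in each population. The probe sets with the strongest adult beta signal reached 13.07 on a CDH5+ array, where the highest value of any probe set was between 13.9 and 14.2 in the 6 arrays.

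Apart from these adult beta genes no other globin with a row was called. Of 13 other globin symbols listed, some of them alternative names of the same genes, 8 had a row. Of these 8, Hbb-bs and Hbb-bt were the 2 called higher, in both populations, with none lower. Of all genes, 0.965% in CDH5+ and 3.24% in c-KIT+ cells were called higher. Hbb-bh2, a beta-like gene that lies between Hbb-bh1 and the adult genes, measured between 3.73 and 4.21 on all 6 arrays. Hbq1b, a theta-like gene of the alpha cluster, measured 6.41 and 5.68 in untreated cells, 5.80 and 6.22 in CDH5+ cells, and 6.54 and 6.48 in c-KIT+ cells. Globins used outside red cells were not called. These were myoglobin (Mb), neuroglobin (Ngb), androglobin (Adgb) and cytoglobin (Cygb), and the log2 difference of Cygb, a globin of fibroblasts, was -1.21 in c-KIT+ cells (limma adjusted p = 0.274).

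None of the genes next to the clusters was called higher. By the gene order of RefSeq, the beta cluster on chromosome 7 lies among olfactory receptor genes, and the alpha cluster on chromosome 11 has Nprl3, Mpg and Rhbdf1 on one side and Sh3pxd2b, Ubtd2 and Efcab9 on the other. Of 12 such flanking genes, 3 on each side of each cluster, limma called 0 in CDH5+ and 2 in c-KIT+ cells, both lower, while 3 were lower and 1 higher at an unadjusted p under 0.05 in each comparison. Of all genes, 8.99% and 9.85% were lower and 6.30% and 11.2% higher at that level. After adjustment 0.213% and 2.72% of all genes were called lower and 0.965% and 3.24% higher. At such shares a set of 12 genes may well hold no gene called higher. The flanking genes of the beta cluster belong to the olfactory receptor genes that set the background, so their low values are no finding. The flanking gene that was higher was Efcab9, with log2 differences of 0.60 and 0.61. The 2 that fell were Rhbdf1, with a log2 difference of -1.05 (limma adjusted p = 0.039), and Sh3pxd2b, with -1.33 (limma adjusted p = 0.024). Nprl3, whose introns hold the enhancers of the alpha cluster in the mouse, measured between 5.27 and 5.65 on all arrays, all below background.

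**Figure D3:**
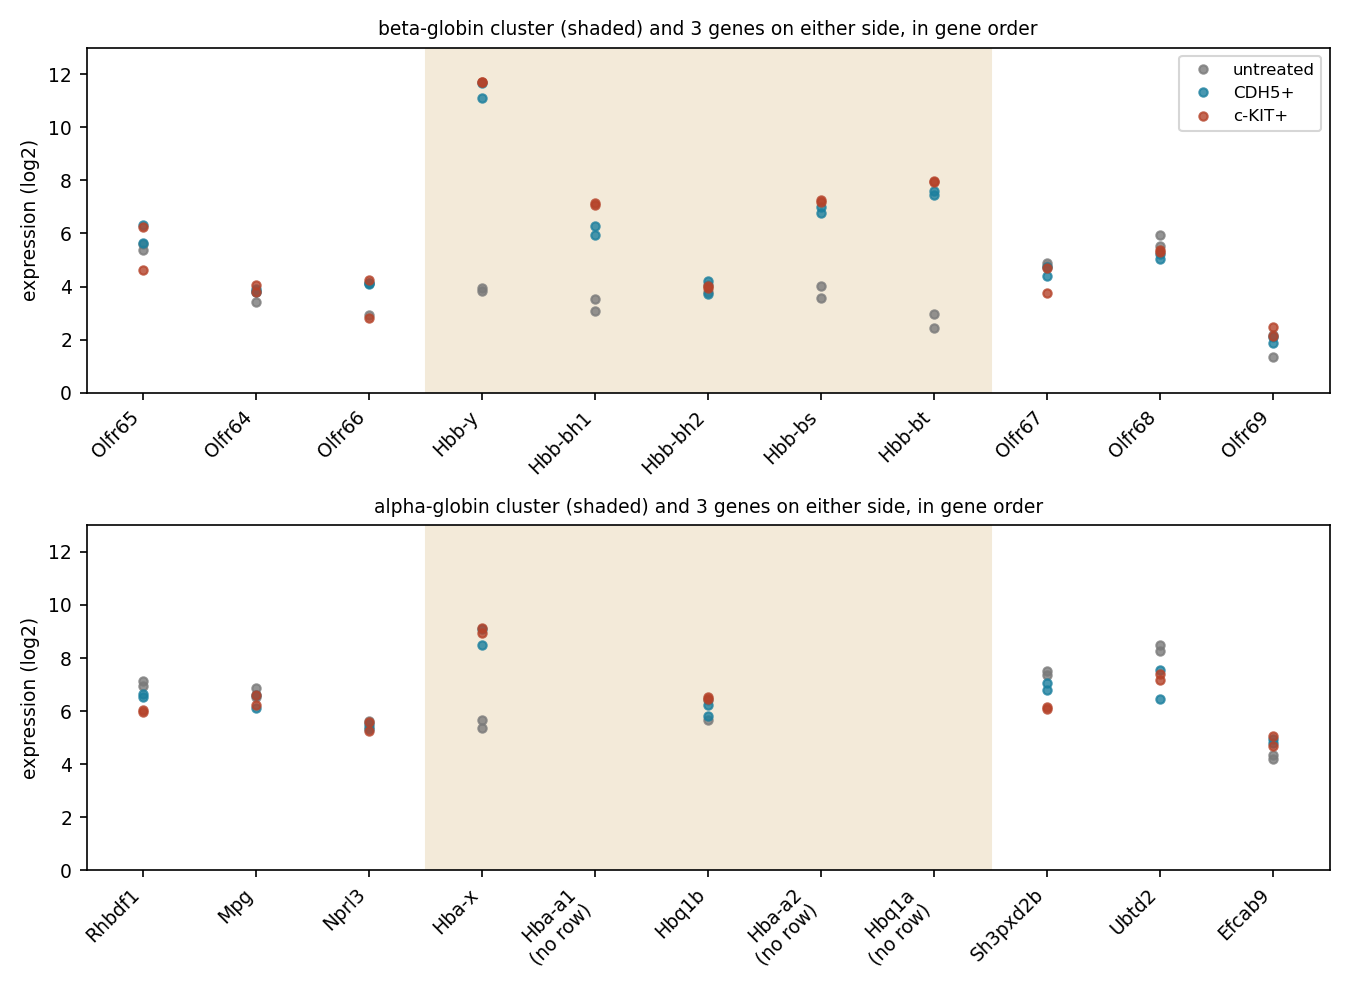
Expression (log2) on each array along the beta-globin and alpha-globin clusters, drawn in gene order and not to distance, with the cluster shaded and 3 genes on either side. Within the beta cluster Hbb-bh2 stays between 3.73 and 4.21 while its neighbours rise, and Hba-a1, Hba-a2 and Hbq1a have no row.

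Regulators of globin genes were compared from a list of 23 genes, all measured. Of these 23, 7 were called higher in CDH5+ and 12 in c-KIT+ cells (0.965% and 3.24% of all genes), with none lower, and the median log2 difference was 0.63 and 1.32 against -0.07 and 0.05 over all genes. For these and the following lists log2 differences are given as measured and no fold, since many of the genes were below background in untreated cells. Klf1, which binds the CACCC box and drives adult beta-globin, measured 4.26 and 4.67 in untreated cells, 5.38 and 5.50 in CDH5+ cells, and 6.69 and 6.38 in c-KIT+ cells. It was below background in CDH5+ cells and above it in c-KIT+ cells, and its log2 difference was 0.98 (limma adjusted p = 0.154) and 2.07 (limma adjusted p = 0.010). Gata1, the main GATA factor of red cell precursors, measured 5.03 and 4.96 in untreated cells, 5.96 and 5.91 in CDH5+ cells, and 6.42 and 6.28 in c-KIT+ cells. It was below background in CDH5+ cells and above it in c-KIT+ cells, as Klf1 was. It was called in c-KIT+ cells, with a log2 difference of 1.35 (limma adjusted p = 0.018), and not in CDH5+ cells, where it was 0.94 (limma adjusted p = 0.103). For neither gene was the difference between c-KIT+ and CDH5+ cells called (limma adjusted p = 0.197 for Klf1 and 0.353 for Gata1), nor was any gene of this list, although 12 of the 23 were higher there at an unadjusted p under 0.05, as were 11.2% of all genes.

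Myb, Nfe2 and Gata2 had the largest measured differences in both populations, an order that rests in part on untreated values below background for Myb and Nfe2. Myb, a factor of immature blood cells, had log2 differences of 5.97 and 6.72. Nfe2, a subunit of the factor that binds the locus control region, had 2.96 and 3.94. Gata2 was 2.75 and 3.52 higher, and Tal1 and Lmo2, partners of GATA1 at globin enhancers, were called as well, but these 3 genes were delivered by the vectors (Tal1 encodes SCL) and probe sets read vector transcripts too. Bcl11a, which represses embryonic globins in adult red cells, measured between 4.72 and 5.37 on all 6 arrays, all below background. Sox6, which acts with Bcl11a, was not called in either population.

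In the pathway that makes heme, the iron-bearing group of every globin chain, 1 gene was called, in c-KIT+ cells. Of 14 genes listed and measured, limma called 0 in CDH5+ and 1 in c-KIT+ cells, where 0.965% and 3.24% of all genes were called higher. At an unadjusted p under 0.05, 3 and 5 of the 14 were higher, as were 6.30% and 11.2% of all genes. The median log2 difference was 0.01 and 0.45, against -0.07 and 0.05 over all genes. The gene called was Alas1, the housekeeping form of the first enzyme of the pathway, with a log2 difference of 1.69 (limma adjusted p = 0.042). Alas2, the red cell form of that enzyme, measured 4.95 and 4.49 in untreated cells, 5.64 and 6.73 in CDH5+ cells, and 5.93 and 6.30 in c-KIT+ cells. The CDH5+ arrays lay on either side of background and so did the c-KIT+ arrays, and the log2 difference of Alas2 was 1.47 (limma adjusted p = 0.194) and 1.40 (limma adjusted p = 0.123). Tmem14c, a mitochondrial porphyrin carrier, had a log2 difference of -0.67 in CDH5+ cells and was not called.

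Among proteins that handle hemoglobin or work beside it in red cells, 12 of 13 listed genes had a row, 1 was called higher in CDH5+ and 2 in c-KIT+ cells, where 0.965% and 3.24% of all genes were. The exception was Ahsp, the chaperone of free alpha chains, which had no row. The genes called were Car2, a carbonic anhydrase found in red cells and in other cell types, in both populations, with log2 differences of 3.52 and 4.69, and Car1, the other red cell carbonic anhydrase, in c-KIT+ cells, with 1.73, although Car1 was below background on all 6 arrays. Cyb5r3, which keeps heme iron reduced, and Hmox1, which breaks heme down, were not called. Red cell membrane and iron uptake genes numbered 18, of which 1 was called higher in CDH5+ and 6 in c-KIT+ cells, with none lower and medians of 0.66 and 0.84, against the same shares of all genes. Rhag, Kel, Epor, Icam4 and Epb4.1 were among those called in c-KIT+ cells, of which Kel was below background on all 6 arrays. Slc4a1, the anion exchanger band 3, had log2 differences of 2.08 and 1.88 and was not called.

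**Figure D4:**
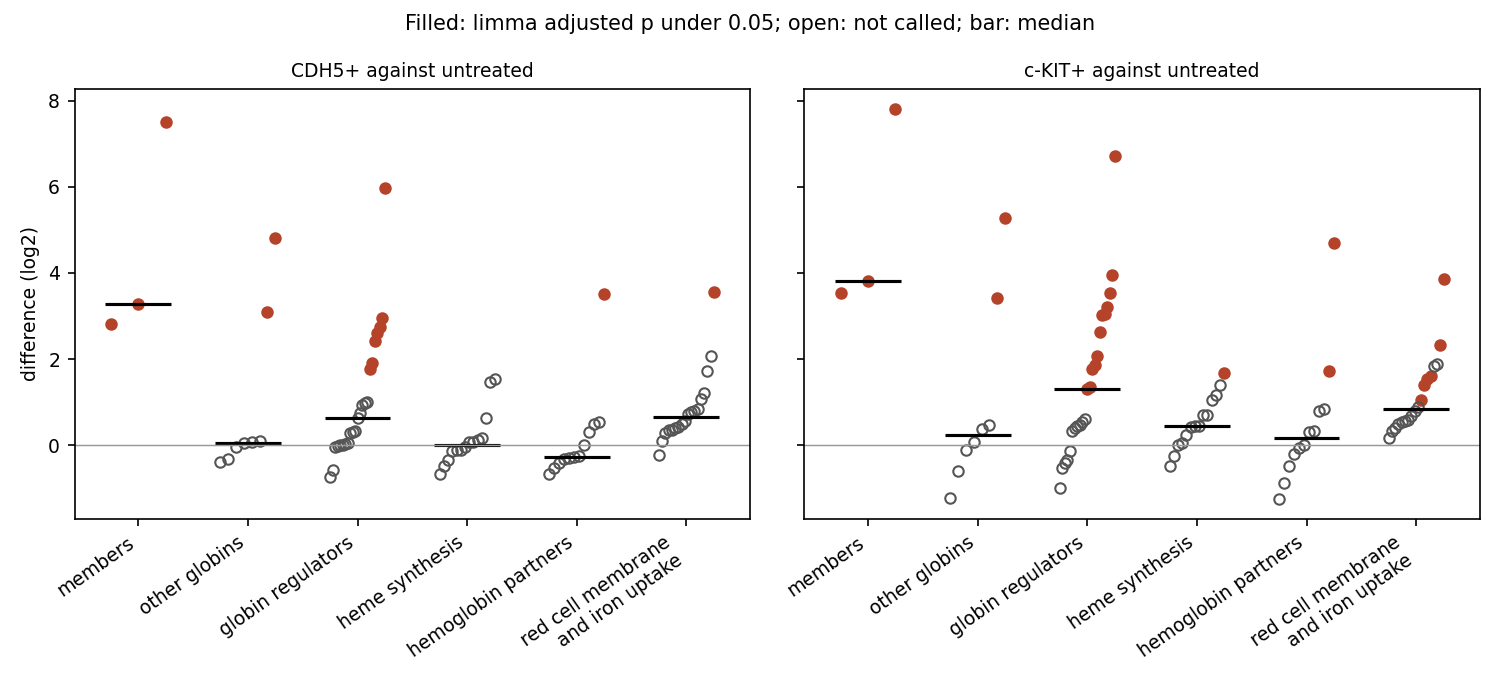
Log2 difference from untreated cells of each gene with a row, for the globins studied, other globins, globin regulators, heme synthesis, hemoglobin partners, and red cell membrane and iron uptake genes, in CDH5+ cells (left) and c-KIT+ cells (right), with filled points called by limma, open points not called and a bar at the median. The 3 globins with a row are all filled. All 14 heme synthesis genes are open in CDH5+ cells and 1 is filled in c-KIT+ cells, where 0.965% and 3.24% of all genes were called higher.

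The genes whose profile over the 6 arrays was most like that of each globin were found among 3124 genes with a range of at least 2 on the log2 scale. The measure was the Pearson correlation, given as a description, since all such genes share the contrast of 2 untreated arrays with 4 sorted ones. For Hbb-y they were Myct1 (0.9999), Ngp and Mpo, and Ngp and Mpo are granule proteins of the neutrophil lineage. For Hbb-bh1 they were Car2 (0.9999), the ETS factor Fli1 and the granule protease Prtn3. For Hba-x they included Gch1 (0.9994), the first enzyme of tetrahydrobiopterin synthesis, and Klhl6.

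Markers of several blood cell types were higher in the sorted populations, as the globins were. Limma called 1 of 7 red cell markers higher in CDH5+ and 4 in c-KIT+ cells, and 6 of 6 neutrophil markers in both. Of all genes 0.965% and 3.24% were. Of 4 genes in each list, 3 progenitor, 2 mast cell and basophil and 1 megakaryocyte marker were called in CDH5+ cells. In c-KIT+ cells 3, 2 and 2 were called, in that order. None was called lower, though the megakaryocyte marker Gp1bb had log2 differences of -0.72 and -0.73. Of 7 red cell markers, 0 were above background on both untreated arrays, 3 on both CDH5+ arrays and 5 on both c-KIT+ arrays, and their mean log2 level was 4.52 to 4.53, 5.77 to 6.39 and 6.40 to 6.41. All 6 neutrophil markers were above background on the sorted arrays, with a mean of 10.2 to 10.7 in CDH5+ and 11.2 to 11.3 in c-KIT+ cells. The 6 endothelial markers had a mean of 4.13 to 4.34 in untreated, 7.35 to 8.21 in CDH5+ and 5.58 to 5.64 in c-KIT+ cells. For the 6 fibroblast markers it was 9.52 to 11.04, 7.80 to 9.77 and 7.46 to 7.52 in the same order. In every group 1 of 4 macrophage and 1 of 3 lymphocyte markers lay above background on both arrays. Still, 2 of the 4 macrophage markers, Cd68 and Emr1, were called higher in c-KIT+ cells and 0 in CDH5+ cells. Cd68 had means of 6.19, 7.56 and 7.28 in untreated, CDH5+ and c-KIT+ cells, and Emr1 was below background on all 6 arrays. No lymphocyte marker was called. Of the genes for the sorted markers, Cdh5 was highest in CDH5+ cells (10.16 and 10.95) and Kit in c-KIT+ cells (8.19 and 8.33). The part of the mixture of cell types in the globin values was not tested.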

How the data were processed

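The authors deposited normalized log2 values for 26323 genes and for 1236087 probe sets of 6 arrays, without pooling replicates; the sources used here state neither the normalization nor the build. No row was filtered out. Each gene was fitted with limma (version 3.58.1, under R 4.3.3) using 1 mean for each group of the 6 arrays (3 residual degrees of freedom), and contrasts were called at a Benjamini-Hochberg adjusted p under 0.05, the 5% false discovery rate of the study; the script was tested on simulated data. Nothing says how the replicate cultures were separated, and the number of arrays limits the precision.

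Of the probe sets, 321091 list 1 gene symbol, 7796 several and 907200 none. The probe set fit, and the row for the Hba-a1 and Hba-a2 probe sets, were added after the gene table was seen to lack both genes. "At least" folds compare a group mean with the mean, over the untreated arrays, of the higher of background and measured value.

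The globins and gene lists were chosen with earlier results of these data known. The genes named are the 5 globins, every measured gene of the other globins, the 3 genes most correlated with each globin, the 3 genes of each list with the largest difference in each population, and Klf1, Gata1, Bcl11a, Alas2 and Ahsp; some genes that this rule takes are not reported here. Other list genes and the flanking genes were named after their values were seen. Alternatives were each array left out, the replicate number as a block, quantile normalization, a filter on dim genes, median centring, a single row for each symbol, a variance trend, robust variances, the median or mean of probe sets, and the 2 groups alone.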

Additional observations from a re-analysis of the deposited data

How the results depend on the processing

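Of the values and counts for the globins compared under the alternatives, 212 stayed the same, 3 counts moved, 3 values reversed and 2 were weaker. A value stayed the same if it kept its direction and its side of the threshold. Many of the 212 repeat the same log2 difference. The block, the filter, the variance trend, robust variances and the single row for each symbol can change only its spread and p. Leaving out an array of the group outside a comparison does the same, and that fit equals the one of the 2 groups alone. For Hbb-y the mean of probe sets is the gene value itself. Counts that went from 3 to 4 with the added adult alpha row are among the 212. So are the counts between c-KIT+ and CDH5+ cells, where limma called no gene at all in most settings. With each array left out in turn, the number of globins called higher in CDH5+ cells ranged from 1 to 3 (1 without the second CDH5+ array, where calls over all genes fell from 310 to 67), and that called by an F-test over the 3 groups from 1 to 3 (1 without the first or the second c-KIT+ array, where calls over all genes fell from 868 to 89 and 86), while 3 were called in c-KIT+ cells each time. In CDH5+ cells against untreated cells, the log2 difference then ranged from 2.97 to 3.57 for Hba-x and from 2.58 to 3.04 for Hbb-bh1, and without the second CDH5+ array neither was called, at 2.97 and 2.65. Hba-x in c-KIT+ against CDH5+ cells changed sign, with a range of -0.040 to 0.56 over the arrays left out (-0.040 without the first CDH5+ array), -0.074 after quantile normalization and -0.10 with the median of its probe sets, so it has no direction. The cause was not tested. At the 90th percentile of the olfactory receptor genes the background averaged 5.48, and all 3 globins had higher values than it in both sorted groups, as 1 of them did in untreated cells. Whether the replicate numbers pair the arrays is not stated. The correlations of same-numbered deviations were 0.120, -0.0153 and -0.0461, and low values do not exclude a shared culture. With the replicate number as a block 3, 3 and 0 globins were called in the 3 comparisons. Adult alpha probe sets reached 13.33, near the highest value of any probe set on the arrays (13.9 to 14.2), and whether the response flattens there was not tested.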

Other observations

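Other features of the alpha cluster were looked at after their values were seen. The pseudogene Hba-ps4 measured 4.36 and 4.61 in untreated cells, 4.58 and 4.69 in CDH5+ cells, and 5.70 and 5.06 in c-KIT+ cells, all below background, with a log2 difference of 0.90 in c-KIT+ cells (limma adjusted p = 0.137). Of 5 probe sets listing Hbq1, 1 was called higher in c-KIT+ cells, with a log2 difference of 2.96 (limma adjusted p = 0.0244 over all probe sets), while the row of Hbq1b was not called.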
